A study of Mus musculus with 9 samples.

Results

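The cytosolic ribosomal proteins were followed through a mouse stroke experiment as 81 genes of the 52550 gene IDs in the deposited transcript tables. A gene was a member when its symbol was Rpl or Rps followed by digits and at most 1 final letter a, l or x, or when it was Rplp0, Rplp1, Rplp2 or Rpsa, and symbols with a -ps ending (processed pseudogenes) were left out. The rule gave 49 genes of the large subunit and 32 of the small subunit. It used names only and no measured value. Of these, 79 were expressed above the threshold used for testing (at least 1 TPM in at least 3 of 9 libraries), 47 large and 32 small; the remaining members, Rpl3l and Rpl39l, were at or near 0 in every library. TPM, a measure of transcripts scaled to a fixed library total, is a level per length of transcript, so that a gene's TPM depends on everything else in the library. The level of a gene was the sum over its annotated transcripts.

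The tissue was cerebral cortex of male C57BL/6N mice aged 9 to 12 weeks, with 3 libraries in each of 3 groups. In the control oligo group, mice received a negative control locked nucleic acid antisense oligo through the lateral ventricles, then 1 h of middle cerebral artery occlusion (MCAO, a filament model of focal stroke) and 6 h of reperfusion. The knockdown group differed in receiving oligos against the enhancer RNA eRNA_06347, and its libraries carry the replicate numbers 2, 3 and 4. Sham mice had the neck incision with no filament, and the labels mention no oligo for them. Infarcted ipsilateral cortex was taken, so all cell types of the tissue contributed, and the level of eRNA_06347 itself was not analysed here.

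The laboratory had generated the sham libraries in a separate, older project, and they differed from the other 6 in ways that touch every comparison with sham. Genes for small structural RNAs (small nuclear, small nucleolar, miscellaneous and ribosomal RNA) took up 62.0% to 66.4% of the sham TPM but 0.705% to 0.862% after MCAO. Mitochondrial genes took up 0.277% to 0.577% and 22.6% to 28.9%, respectively. Aligned sequence amounted to 2.70 to 2.87 gigabases per library in sham and 4.40 to 4.92 in MCAO. A sequenced fragment held 51 aligned bases in sham and 282 in MCAO, estimated as the most frequent value among sparsely covered single-exon transcripts. That puts the number of fragments at 53000000 to 56400000 in sham and 15600000 to 17400000 in MCAO. Sham thus had more fragments, with fewer aligned bases in each. The length of the fragments themselves is not given by these values. Stroke and data set therefore cannot be told apart in comparisons with sham, and each such comparison is also given after median-ratio scaling (every library divided by its median ratio to a reference over genes) and on TPM recomputed over nuclear protein-coding genes alone. The MCAO groups, prepared with the same poly(A) protocol, do not have this difference between them.

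Ribosomal proteins surround the ribosomal RNA of the large subunit, which joins amino acids, and of the small subunit, which decodes the messenger RNA. Each ribosome carries a single copy of almost all of them, and their messenger RNAs are among the most abundant of any cell. Most begin with a terminal oligopyrimidine (TOP) tract, an uninterrupted stretch of C and T at the start of the transcript through which the growth kinase mTOR and the RNA-binding protein LARP1 set their translation. In neurons they are found in cell bodies and also in dendrites and axons.

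The start sites are shown because such a tract is a feature the naming rule did not use. RefSeq start sites of build GRCm38.p6 matched 59 of the 81 members by symbol, with 71 promoters between them. The window examined ran from 10 bases before to 20 bases from the annotated start, and capitals mark the longest run of C and T letters on the strand of the gene. A run of at least 8 was present in 23 of the 71 member promoters (32.4%) and in 3693 of 32851 promoters of all genes (11.2%). The median longest run was 6 in member promoters and 4 in all promoters. A run anywhere in the window counted, so it need not lie at the start of the transcript. Examples that differed little, moderately and strongly from sham follow, with the start-site window of each on its own strand. All were taken from the members with a run of at least 8, and none from those without.
Rpl27a, chr7:109519185-109519214, plus strand: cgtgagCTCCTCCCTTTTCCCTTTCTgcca
Rpl38, chr11:114668570-114668599, plus strand: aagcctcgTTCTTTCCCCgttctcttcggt
Rps6, chr4:86857348-86857377, minus strand: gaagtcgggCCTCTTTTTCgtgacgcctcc
Rplp2, chr7:141447641-141447670, plus strand: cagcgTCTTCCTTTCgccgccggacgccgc
Rpl35, chr2:39005112-39005141, minus strand: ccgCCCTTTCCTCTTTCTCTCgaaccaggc
Rps26, chr10:128626487-128626516, minus strand: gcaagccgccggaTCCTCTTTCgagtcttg
Rpl7a, chr2:26910797-26910826, plus strand: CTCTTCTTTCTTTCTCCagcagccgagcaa
The run was 20 letters long in Rpl27a, 18 in Rpl35, 17 in Rpl7a and 10 in Rpl38, Rps6 and Rplp2, and 9 in Rps26. The median log2 difference between control oligo MCAO and sham was 1.66 for the 23 tested members with a run of at least 8 and 1.39 for the 34 without. The long runs of Rpl27a and Rpl7a belonged to members near opposite ends of the range of differences described next.

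Summed over members, ribosomal protein messenger RNA held about 3 times the share of TPM in the MCAO libraries that it held in sham. The share of all TPM was 0.938%, 0.983% and 0.937% in sham replicates 1 to 3, and 2.86%, 2.42% and 3.18% in the control oligo libraries. It was 2.89%, 3.36% and 2.81% in knockdown replicates 2, 3 and 4. All 6 MCAO libraries lay above all 3 sham libraries, and control oligo replicate 2 was the lowest of the 6. As a share of nuclear protein-coding TPM the gap was smaller, 2.89% ± 0.15 (SD, n = 3) for sham, 4.91% ± 0.92 for the control oligo and 4.90% ± 0.40 for knockdown, still without overlap between sham and MCAO.

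The subunits differed from sham by about the same factor. Large-subunit members summed to 5583 ± 162 TPM (SD, n = 3) for sham, 16224 ± 2007 for the control oligo and 17443 ± 1774 for knockdown. Small-subunit members summed to 3942 ± 106, 11972 ± 1773 and 12744 ± 1253 TPM. The ratio of large to small was 1.399 to 1.430 over the sham libraries, 1.328 to 1.396 in control oligo and 1.333 to 1.404 in knockdown. Every control oligo library was thus below every sham library, by a small margin, while knockdown overlapped sham. This is a description for which no test was made. Within groups the members tended to be high or low in the same library: control oligo replicate 2 had the lowest value of its group for 69 of the 79 tested members and replicate 3 the highest for 64, and knockdown replicate 3 had the highest of its group for 66.

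**Figure D1:**
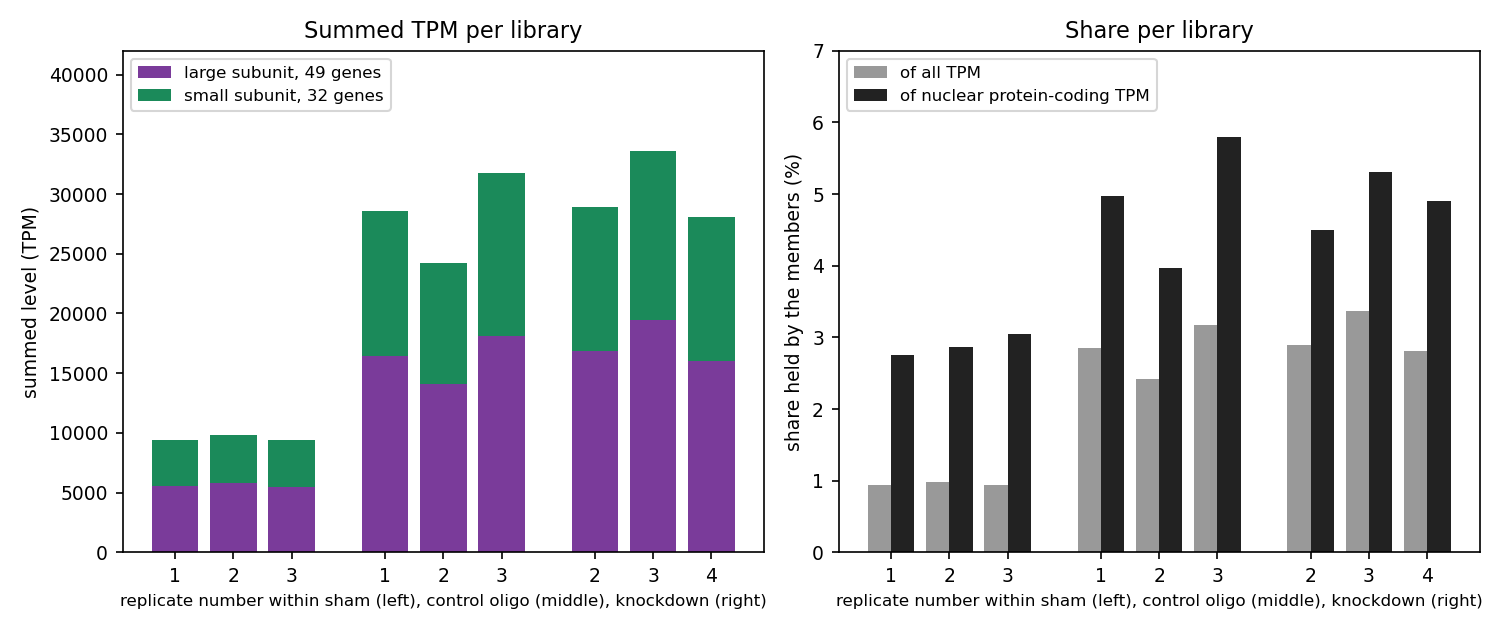
Left, summed TPM of the 49 large-subunit and 32 small-subunit members in each of the 9 libraries, by replicate number within sham, control oligo MCAO and knockdown MCAO. Right, the members' share of all TPM (grey) and of nuclear protein-coding TPM (black) in percent. Sham libraries are lowest on every measure, and the gap is narrower on the share of nuclear protein-coding TPM.

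Every tested ribosomal protein gene was higher after stroke than in sham on the TPM scale, although Rps20 turned negative after median-ratio scaling and Rps20, Rps21, Rps28 or Rps29 on nuclear protein-coding TPM. With the control oligo, 79 of 79 rose and 0 fell at an adjusted p under 0.05 (limma on log2(TPM + 1), Benjamini-Hochberg over 17080 genes), in a comparison where 52.6% of all genes tested were called higher and 12.8% lower. For all 79 members the lowest control oligo library was above the highest sham library, which was so for 56.2% of all genes. The median log2 difference was 1.51 for the large subunit and 1.51 for the small subunit, against 0.56 over all genes tested. The middle of the distribution was narrow, with quartiles at 1.22 and 1.80, and 71 members exceeded 1 on the log2 scale. After median-ratio scaling the median was 0.85 against 0.01 over all genes, 66 members were called higher and 0 lower (26.1% of all genes higher), and the 13 not called were Rpl14, Rpl18, Rpl27a, Rpl36a, Rpl37a, Rpl38, Rpl39, Rplp1, Rps16, Rps20, Rps21, Rps28 and Rps29. On nuclear protein-coding TPM the median was 0.71 against -0.06, and 61 of 77 members were called higher and 0 lower (21.5% of all genes higher). Because the tissue was sampled in bulk, a change in the number of cells of a type and a change in messenger RNA per cell cannot be told apart. Stroke and data set cannot be told apart here either, since the sham libraries came from the older project.

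**Figure D2:**
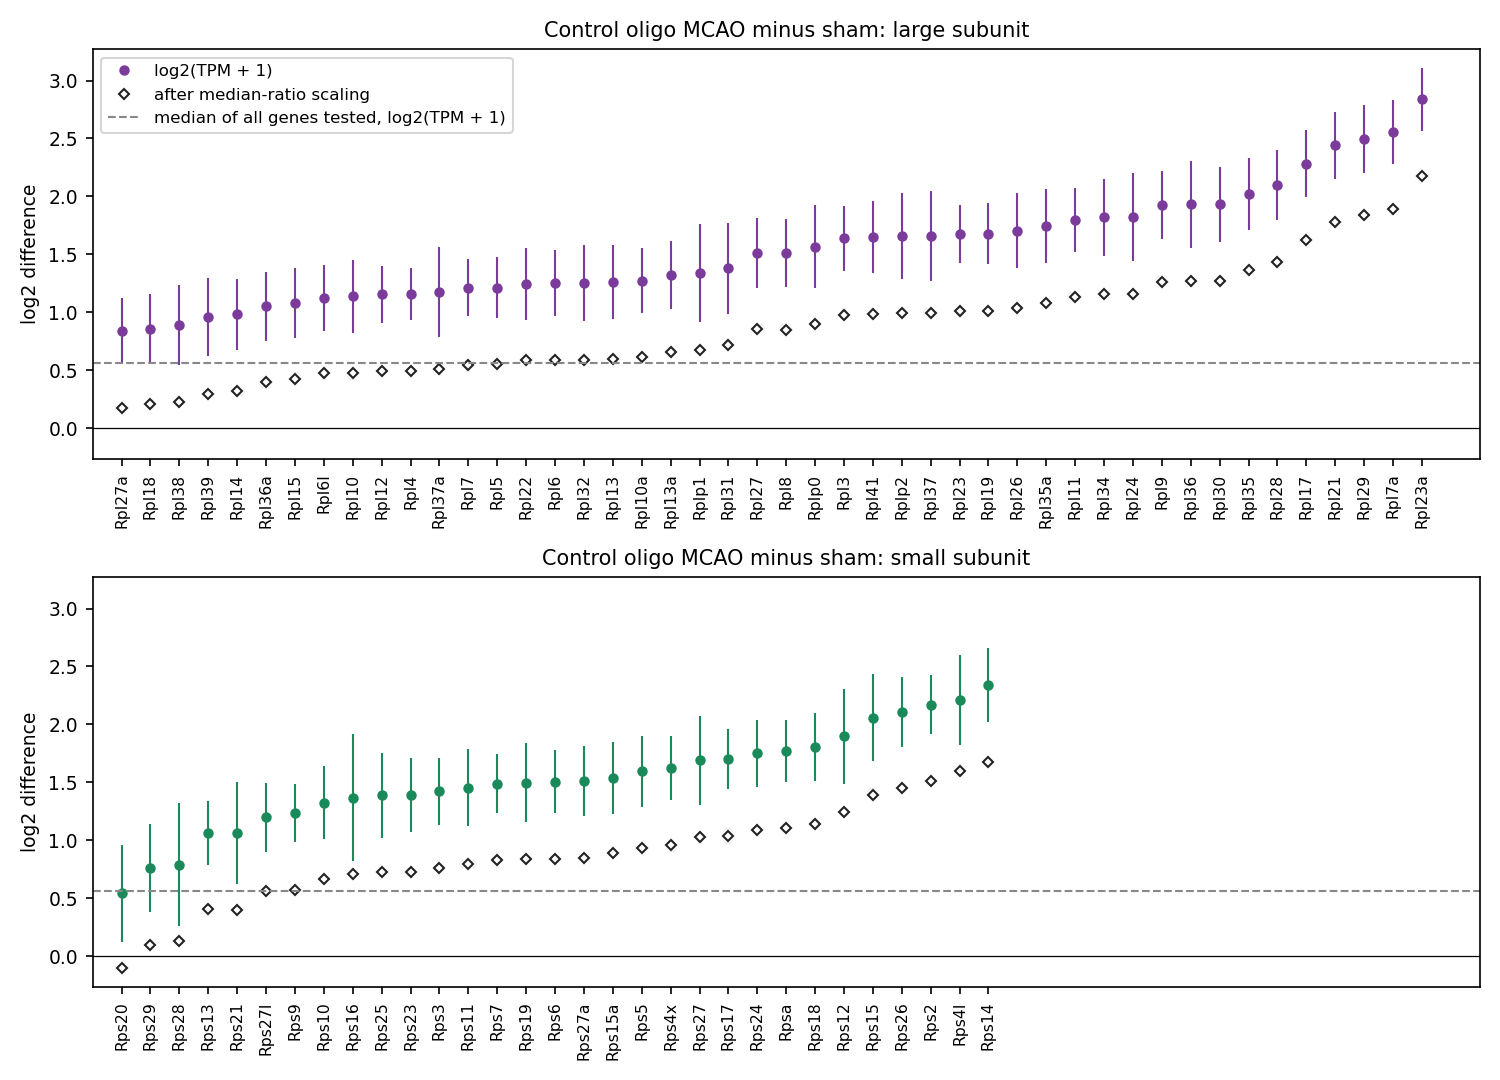
Log2 difference of control oligo MCAO minus sham for 46 of the 47 large-subunit (top) and 31 of the 32 small-subunit (bottom) members tested, ordered by size. Filled points are fits on log2(TPM + 1) with 95% confidence intervals, open diamonds the same after median-ratio scaling, and the dashed line the median of all genes tested (0.56). All filled points lie above 0, and the diamond of Rps20 lies at -0.10.

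Among large-subunit proteins the highest difference was that of Rpl23a, which lines the exit of the peptide tunnel (chromosome 11, 78180932 to 78183584, minus strand, GRCm38). Its level was 59.1, 61.9 and 60.7 TPM in sham and 443, 394 and 484 TPM with the control oligo. The spread among the 3 libraries of either group was small beside the gap, and the log2 difference was 2.84 (SE 0.12, limma adjusted p = 7.4e-07). Rpl7a (chromosome 2, 26910764 to 26913318, plus strand), whose introns hold 3 annotated small nucleolar RNAs, stood at 53.8, 62.7 and 54.6 TPM in sham and 334, 321 and 364 TPM in control oligo, a log2 difference of 2.55 (SE 0.12). Rpl29, a peripheral protein of the large subunit, was at 24.9, 26.6 and 23.8 TPM in sham and 153, 132 and 154 TPM in control oligo, a log2 difference of 2.49. Rpl21 followed with 2.44. In each of these the control oligo libraries were more than 4 times every sham library, and all 4 remained called after median-ratio scaling, with log2 differences of 2.18, 1.89, 1.84 and 1.78.

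At the lower end of the large subunit were Rpl27a, Rpl18 and Rpl38. Rpl27a rose from 146, 142 and 135 TPM to 265, 221 and 275 TPM, a log2 difference of 0.84 (SE 0.12, limma adjusted p = 5.0e-04). Rpl18 went from 34.6, 32.2 and 37.2 TPM to 61.3, 59.7 and 70.0 TPM. Rpl38, a small protein whose loss in mice patterns the axial skeleton abnormally, was among the more abundant members already in sham at 279, 332 and 270 TPM and reached 562, 449 and 634 TPM. None of these 3 was called after scaling, where the log2 differences were 0.18, 0.20 and 0.23.

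The stalk of the large subunit, which recruits translation factors, is built of Rplp0, Rplp1 and Rplp2. Rplp0 was at 104, 110 and 118 TPM in sham and 287, 300 and 413 TPM in control oligo. Rplp1, the most abundant large-subunit message, was at 457, 389 and 436 TPM and then 1024, 852 and 1441 TPM, and Rplp2 at 71.0, 69.0 and 78.0 TPM and then 220, 194 and 290 TPM. For all 3 the third control oligo library was the highest, and the log2 differences were 1.57 (SE 0.16), 1.34 (SE 0.18) and 1.66 (SE 0.16). Rplp1 lost its call after scaling (log2 difference 0.67, adjusted p = 0.059), whereas Rplp0 and Rplp2 kept theirs.

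Rpl5 and Rpl11, which with the small ribosomal RNA of the large subunit can bind and inhibit the p53 ligase MDM2, both rose. Rpl5 was at 79.0, 84.7 and 73.7 TPM in sham and 195, 175 and 184 TPM in control oligo, a log2 difference of 1.21 (SE 0.12). Rpl11 was at 73.1, 80.1 and 73.5 TPM and then 274, 237 and 285 TPM, a log2 difference of 1.80 (SE 0.12). Groups did not overlap in either gene. Whether the pair differed from each other in change was not tested. Rpl13a, a protein also known to leave the ribosome and silence inflammatory messages, had a log2 difference of 1.32 (SE 0.13).

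In the small subunit the range ran from Rps20 to Rps14. Rps14 had a log2 difference of 2.34 (SE 0.14), from 193, 229 and 201 TPM to 1079, 891 and 1205 TPM. Rps15, a protein of the small-subunit head, was the most abundant member after stroke: 347, 379 and 369 TPM in sham became 1626, 1174 and 1846 TPM, a log2 difference of 2.06 (SE 0.16). The control oligo libraries of Rps15 varied more than those of sham, and the lowest was still more than 3 times the highest sham value.

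Rps20, also a protein of the head, showed the least difference of all members (chromosome 4, 3831334 to 3835665, minus strand). It was at 26.0, 29.0 and 25.1 TPM in sham and 43.6, 30.0 and 46.3 TPM in control oligo. Control oligo replicate 2 was only just above sham replicate 2, and the log2 difference of 0.54 (SE 0.18, limma adjusted p = 0.028) lost its call when any 1 sham library, or control oligo replicate 1 or 3, was left out (adjusted p 0.0501 to 0.0932). After median-ratio scaling its difference was -0.10. Rps28 rose by 0.79 (SE 0.23, adjusted p = 0.016), from 101, 86.4 and 61.1 TPM to 141, 109 and 182 TPM, and was not called without sham replicate 3 (0.58, adjusted p = 0.059). Rps29, the most abundant member in sham at 447, 445 and 478 TPM, reached 777, 611 and 980 TPM, a log2 difference of 0.76 (SE 0.17). On nuclear protein-coding TPM these 3 stood at -0.25, -0.013 and -0.044, so that their direction depended on the scale.

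Small-subunit members with known roles beside structure lay near the middle. Rps6, the substrate of the S6 kinases, was at 120, 134 and 115 TPM in sham and 360.5, 321 and 372 TPM in control oligo (log2 difference 1.50, SE 0.12). Rps27a, made as a fusion with ubiquitin, differed by 1.51 (SE 0.13), Rps3, which lines the entry of the messenger RNA channel, by 1.42 (SE 0.13), and Rps19, which is mutated in Diamond-Blackfan anaemia, by 1.50 (SE 0.15). Rpsa, known also as a laminin receptor, was at 103, 106 and 103 TPM and then 343, 330 and 402 TPM, a difference of 1.77 (SE 0.12). All of them remained called after scaling, with log2 differences between 0.76 and 1.11.

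**Figure D3:**
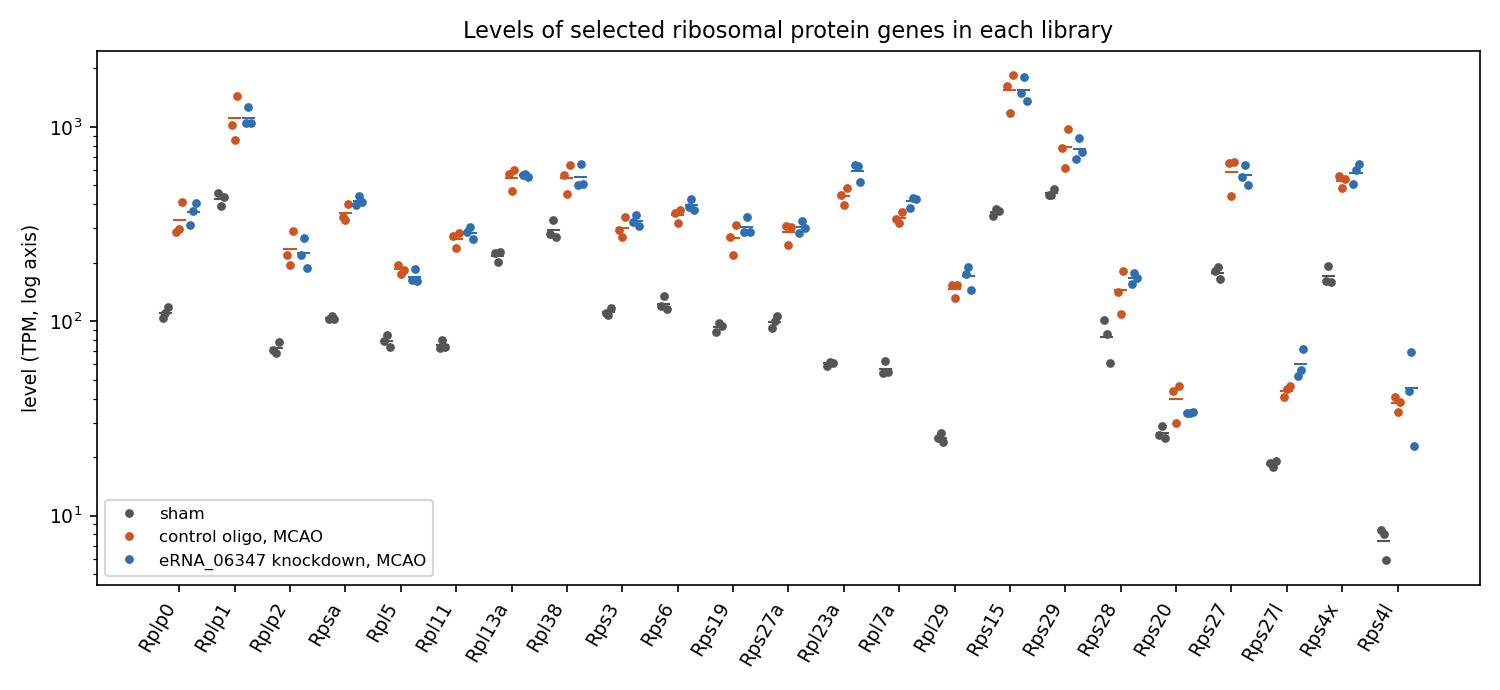
Level in TPM (log axis) of 23 members in each library, with points for the 3 libraries of each group and a line at their mean. Sham points lie below those of control oligo and knockdown in every gene shown; the gap is widest in Rpl23a, Rpl7a and Rpl29 and narrowest in Rps20.

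Across the 79 members, levels in sham and control oligo had a Spearman correlation of 0.87, given as a description because the genes of a library are not independent. The median level was 97.2 TPM in sham, 296 TPM with the control oligo and 329 TPM after knockdown. Across members the difference from sham had Spearman correlations of -0.08 with expressed transcript length and 0.24 with mean level. The 29 tested members that hold small nucleolar RNA genes in their span had a median log2 difference of 1.46 and the 50 without had 1.51.

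Paralogues that the rule includes were measured beside their main copies. Rps27l, a p53-responsive copy of Rps27, rose from 18.6, 17.8 and 19.1 TPM to 40.5, 44.9 and 46.2 TPM (log2 difference 1.20, SE 0.13), while Rps27 itself went from 181, 189 and 164 TPM to 649, 443 and 663 TPM (1.69, SE 0.17). For each 100 TPM of Rps27 there were 10.5 ± 1.1 TPM of Rps27l (SD, n = 3) in sham, 7.78 ± 2.07 with the control oligo and 10.9 ± 3.1 after knockdown, and these ranges overlapped. Rps4l and Rpl6l are typed as processed pseudogenes in GENCODE M21. Rps4l was the lowest tested member in sham at 8.40, 8.01 and 5.89 TPM and stood at 40.7, 34.2 and 38.5 TPM in control oligo (log2 difference 2.21, SE 0.17), beside Rps4x at 1.62 (SE 0.12). Rpl6l differed by 1.12 and Rpl6 by 1.25. Reads of near-identical copies can be shared between them, so these values are uncertain. Rpl3l, the striated muscle copy of Rpl3, did not exceed 0.610 TPM in any library, and Rpl39l, known from testis, did not exceed 0.294 TPM, beside log2 differences of 1.64 for Rpl3 and 0.96 for Rpl39. Rpl10, with no such copy among the members, differed by 1.14.

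Processed pseudogenes changed the order of the members. The annotation holds 227 -ps genes for 58 members, 19 of them for Rpl31. For each 100 TPM of members there were 36.6 ± 1.5 TPM of -ps genes (SD, n = 3) in sham, 25.02 ± 0.21 with the control oligo and 24.1 ± 0.6 after knockdown. These values set 51 aligned bases per fragment in sham against 282 in MCAO. The part of that difference in the sharing of reads between near-identical copies was not tested. The 5 copies of Rpl23a summed to 155 ± 12 TPM in sham and 151 ± 24 TPM in control oligo, against 60.6 and 440 TPM for Rpl23a itself. With copies added to their parent genes the log2 difference of Rpl23a was 1.45 in place of 2.84, that of Rpl17 1.35 in place of 2.28, and that of Rps12, with 13 copies, 0.79 in place of 1.90. Rpl29 then had the highest difference, at 2.43, and 79 of 79 members were still called higher (52.7% of all genes on that scale).

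The share of TPM assigned to each transcript form of several members also differed between sham and stroke libraries, again with 51 against 282 aligned bases per fragment, whose part in the assignment was not tested. Protein-coding transcripts held 84.2% to 85.0% of member TPM in sham, 88.4% to 90.9% with the control oligo and 89.3% to 89.9% after knockdown, and transcripts annotated with a retained intron held 9.95% to 10.2%, 4.33% to 6.32% and 4.78% to 5.30%. Most members contributed little: the share of coding transcripts moved by less than 5 percentage points in 45 of 77. The median change was 0.73 points. The share was higher by more than 20 points in 11 members and lower by more than 10 points in 5, among them Rps20, Rps6, Rpl5 and Rps24. In Rps18 it was 21.1%, 28.3% and 28.2% in sham and 75.1%, 70.5% and 76.4% in control oligo, and in Rpl7 33.9%, 29.1% and 35.4% became 83.2%, 73.5% and 91.1%. In Rps18 a retained-intron transcript of 2 exons was at 59.9 to 69.8 TPM in sham and 5.0 to 6.1 TPM in control oligo. Its retained-intron forms of more exons were instead higher in control oligo. That of 4 exons was at 13.93 to 14.43 TPM in sham and 20.42 to 32.63 TPM in control oligo. Those of 3 exons were at 2.58 to 4.32 and 17.8 to 19.49 TPM, and at 1.31 to 1.86 and 22.6 to 35.64 TPM. The remaining form, also of 2 exons, overlapped between these groups. All these values were estimated by read assignment and not tested. In Rpl12 the coding transcript stood at 8.8 to 11.5 TPM in sham and 80.6 to 118 TPM in control oligo, beside a form marked for nonsense-mediated decay that was at 58.1 to 62.4 TPM and 44.7 to 72.7 TPM. Counting coding transcripts alone, Rps18 had the highest difference from sham, 3.30 on the log2 scale, and 76 of 77 members were called higher (53.2% of all genes on that scale). Rps20, the exception, differed by 0.26, and its coding share was lower after stroke (59.4% to 76.3%) than in sham (83.8% to 85.6%).

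**Figure D4:**
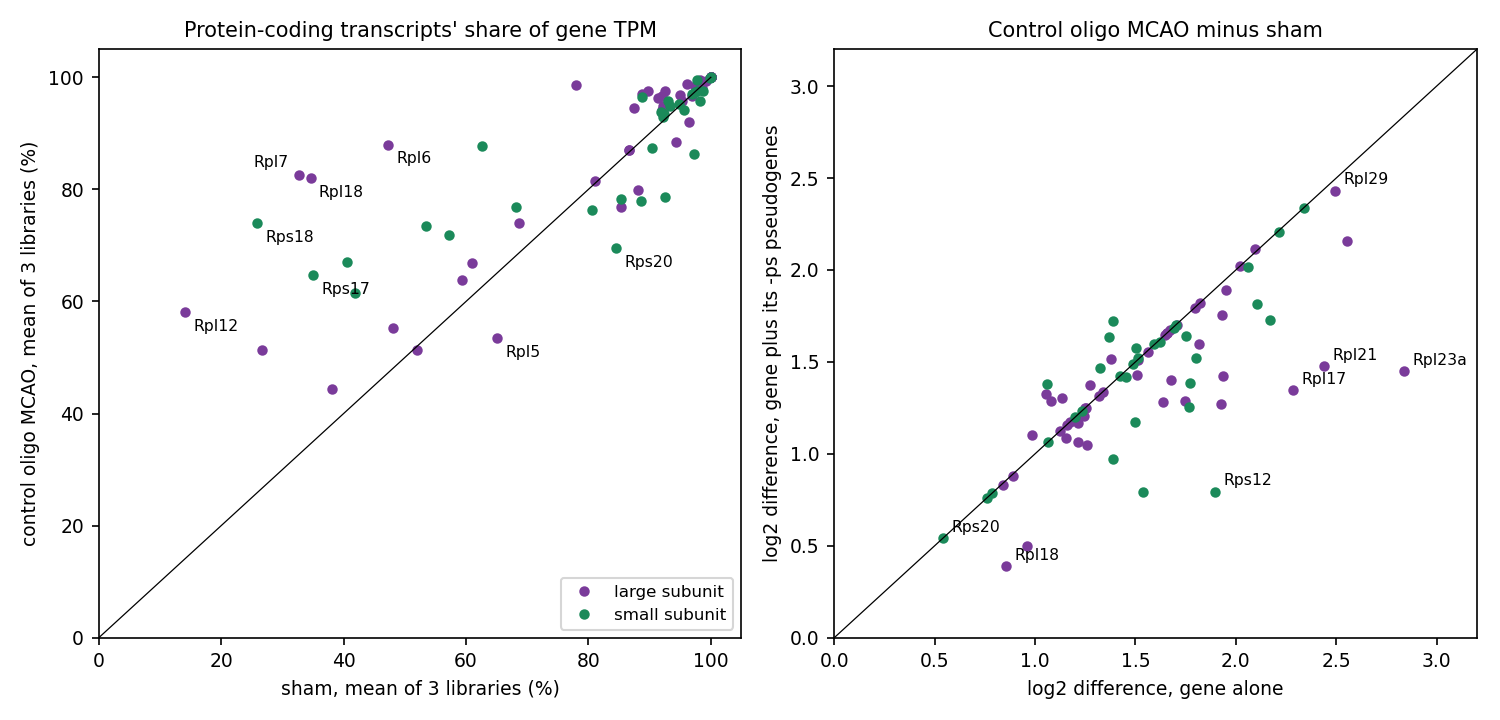
Left, percent of each member's TPM on protein-coding transcripts in sham (x axis) and control oligo MCAO (y axis), means of 3 libraries. Right, log2 difference of control oligo MCAO minus sham for each member alone (x axis) and with its -ps pseudogenes added (y axis). Points on the diagonal are unchanged; Rpl7, Rpl18, Rps18, Rpl12 and Rpl6 lie far above it on the left, and Rpl23a, Rpl17, Rpl21 and Rps12 far below it on the right.

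Knockdown of eRNA_06347 was compared with the control oligo among mice that all had MCAO. No ribosomal protein gene passed the test, 0 of 79 in either direction, and 2 of the 17080 genes tested did (0.0117%). The median log2 difference was 0.10 for the large subunit and 0.13 for the small subunit, against 0.06 over all genes, and members ranged from -0.21 (Rps20) to 0.43 (Rps27l). These medians were small beside what 1 library could move: 0.030 and 0.050 without control oligo replicate 2, and 0.044 and 0.054 without knockdown replicate 3. They were 0.17 and 0.21 without control oligo replicate 3, and 0.18 and 0.19 without knockdown replicate 4. The median standard error of a member was 0.16, and the upper 95% limit was over 1 for 1 member only, Rps4l. At an unadjusted p under 0.05 there were 3 members higher and 0 lower (1.04% and 0.843% of all genes), namely Rpl23a, Rps27l and Rps26. In 8 members every knockdown library was above every control oligo library (3.6% of all genes) and in 0 below (1.8%).

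Among these 8 were Rpl23a, Rpl7a, Rps26 and Rps27l, with Rpl10a, Rpl24, Rps2 and Rps6. Rpl23a was at 633, 627 and 521 TPM in knockdown replicates 2, 3 and 4, above the 394 to 484 TPM of the control oligo, a log2 difference of 0.43 (SE 0.15, limma adjusted p = 1.0). Rps26, which sits at the messenger RNA exit, was at 360, 425 and 371 TPM against 268 to 344 TPM (0.36, SE 0.15). Rps27l was at 52.2, 55.9 and 72.1 TPM against 40.5 to 46.2 TPM (0.43, SE 0.16), and its difference was 0.30 without knockdown replicate 4. Rps7, also among the members of lowest p, had 0.25. Knockdown replicate 4 had the highest summed level of 7 neutrophil markers, 1421 TPM against 31.5 to 339 TPM in the other 5 MCAO libraries, and of 8 monocyte and macrophage markers, 792 TPM against 42.2 to 173 TPM. Whether this had a part in the Rps27l level of that library was not tested. Summed members in that library, 2.81% of TPM, were the lowest of the knockdown group by share of all TPM. By share of nuclear protein-coding TPM, knockdown replicate 2 was the lowest at 4.50%, against 4.91% in replicate 4.

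Members at the other end were Rps20, Rps25, Rps21, Rpl5 and Rpl36. Rps20 was at 33.6, 33.8 and 34.1 TPM with knockdown, inside the control oligo range. Rps25 was split, with 170 and 188 TPM in knockdown replicates 2 and 3 and 319 TPM in replicate 4, around the 202 to 298 TPM of the control oligo (-0.20, SE 0.27). Rps21 and Rpl36 had -0.17 and -0.07. Rpl5 was at 162, 185 and 161 TPM against 175 to 195 TPM. The share of Rpl5 on coding transcripts, however, was 70.7% to 71.8% with knockdown and 51.9% to 55.0% with the control oligo, without overlap, and for coding transcripts alone its log2 difference was 0.28 where the gene as a whole gave -0.13. Neither log2 difference passed the test. The share itself was not tested, and Rpl5 was chosen as an example from 77 members after its values were seen.

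**Figure D5:**
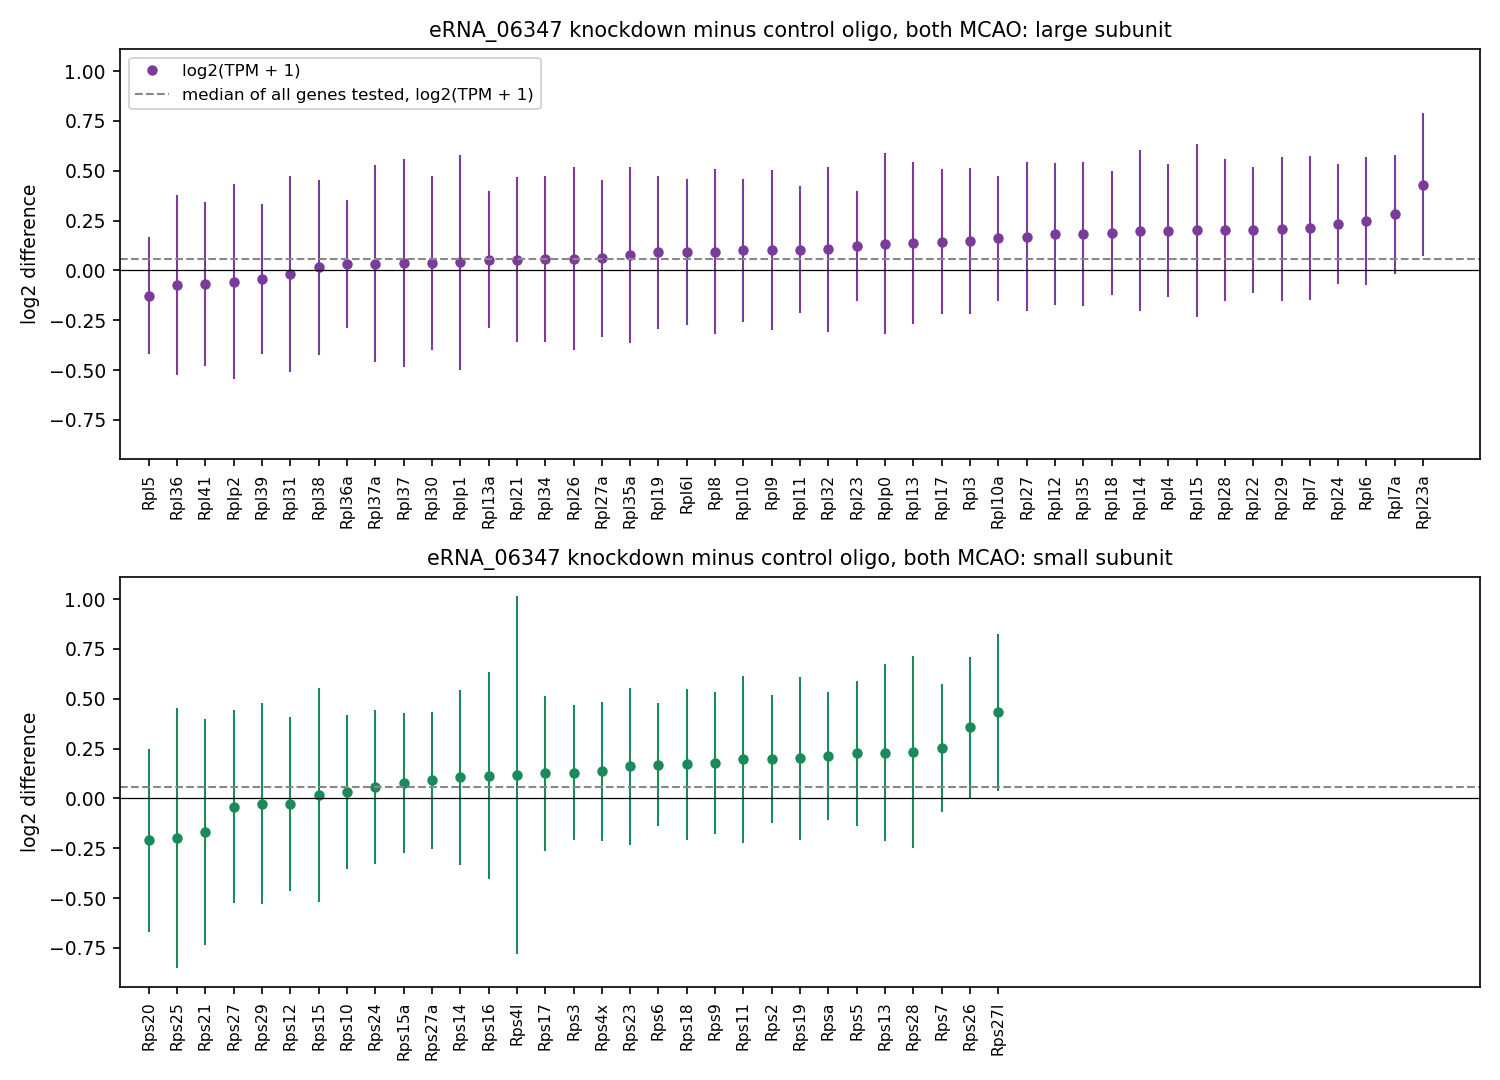
Log2 difference of eRNA_06347 knockdown minus control oligo, both after MCAO, for 46 of the 47 large-subunit (top) and 31 of the 32 small-subunit (bottom) members tested, with 95% confidence intervals; the dashed line is the median of all genes tested (0.06). Most intervals include 0, those of Rpl23a, Rps27l and Rps26 do not, and no member passed after adjustment over all genes.

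Knockdown MCAO against sham shares the sham libraries with the first comparison, and its values are given beside it. Again 79 of 79 members were called higher and 0 lower (52.7% of all genes higher), with medians of 1.60 for the large and 1.66 for the small subunit against 0.61 over all genes. The range was 0.33 (Rps20) to 3.27 (Rpl23a), and Rps20 lost its call when any 1 sham library, or knockdown replicate 2 or 3, was left out (limma adjusted p 0.0665 to 0.135). Rpl7a had 2.83, Rpl29 2.70, Rpl21 2.50 and Rps26 2.46, while Rps29 had 0.74, Rps21 0.89, Rpl27a 0.90 and Rpl38 0.91. After median-ratio scaling 70 members were called higher (22.7% of all genes) and 1 lower (27.1%), Rps20 at -0.37 (limma adjusted p = 0.020). On nuclear protein-coding TPM 62 of 77 were higher (17.8% of all genes) and 1 lower (28% of all genes), again Rps20.

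Lists of related genes are read against all genes tested, of which 52.6% were called higher and 12.8% lower in control oligo MCAO than in sham (median log2 difference 0.56). After median-ratio scaling these shares were 26.1% and 29.2%. Of 7 ribosomal proteins and relatives that the naming rule missed, 7 (100%) were called higher than in sham, with a median log2 difference of 1.06, and 5 (71.4%) were after scaling. Rps3a1, a small-subunit protein, was at 154, 173 and 152 TPM in sham and 580, 512 and 601 TPM in control oligo (1.81, SE 0.12). Fau, whose product includes a small-subunit protein, differed by 0.84 (SE 0.15). Rpl36al differed by 1.66 (SE 0.12). Beside the pair of lowest p in each list, the genes of these lists that are named were chosen after their values were seen.

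Other genes with TOP messages, mainly translation factors, were higher in 18 of 18 cases, with a median of 1.41, and after scaling 13 (72.2%) were higher and 0 lower, beside 26.1% and 29.2% of all genes. Eif3f, a subunit of initiation factor eIF3, rose by 2.26 (SE 0.14), and Vim, an intermediate filament protein of astrocytes and vessel cells, by 3.01 (SE 0.19). Vim stood at 296 TPM in knockdown replicate 4 and at 78.3 to 124 TPM in the other MCAO libraries. Eef1a1, which brings aminoacyl-tRNA to the ribosome, went from 1097 ± 76 TPM (SD, n = 3) to 2094 ± 110 TPM (log2 difference 0.93), and was not called after scaling.

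Genes that make and assemble ribosomes were compared with the same background, 52.6% higher among all genes and 26.1% after scaling. Among 13 proteins of small nucleolar particles, which modify ribosomal RNA, 12 (92.3%) were higher and 0 lower (median 0.99), and 6 (46.2%) were higher after scaling. Fbl, the methyltransferase fibrillarin, was at 10.3, 9.22 and 9.70 TPM in sham and 68.6, 95.4 and 67.4 TPM in control oligo (2.85, SE 0.17), and Gar1 differed by 2.55 (SE 0.20). Of 15 genes of RNA polymerase I transcription 11 (73.3%) were higher (median 0.85), and after scaling 5 (33.3%) were higher, near the share of all genes, and 1, Rrn3, lower. Polr1c and Znrd1, subunits of the polymerase, differed by 1.52 and 1.46. Of 36 large-subunit assembly factors 33 (91.7%) were higher and 1 lower (median 1.16), and after scaling 23 (63.9%) were higher and 1 lower. Rrp1, the most highly expressed of them, differed by 1.38 (SE 0.12). Sbds, mutated in Shwachman-Diamond syndrome, rose by 1.83 (SE 0.17), and Mdn1, the ATPase that strips assembly factors from the large subunit, fell by 1.22 on the log2 scale. Of 32 small-subunit assembly factors 21 (65.6%) were higher and 0 lower (median 0.82), and after scaling 11 (34.4%) were higher, not far from the share of all genes, and 4 lower, among them Utp20 and Heatr1. Utp3 and Utp4 differed by 1.75 and 1.24.

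Chaperones and import factors of ribosomal proteins were higher in 7 of 10 cases (70.0%, beside 52.6% of all genes) with 0 lower (median 0.81), and in 4 (40.0%) with 1 lower after scaling. Aamp and Bccip differed by 1.08 and 1.31. Of 18 regulators of TOP translation and growth 12 (66.7%) were higher and 0 lower (median 0.94), and after scaling 9 (50%) were higher and 6 (33.3%) lower, beside 26.1% and 29.2% of all genes. Myc, a transcription factor that drives ribosome production, was at 1.51, 0.670 and 0.955 TPM in sham and 13, 8.63 and 9.92 TPM in control oligo (2.50, SE 0.22), and Max, its partner in DNA binding, differed by 1.76. Mtor and Rptor, parts of the kinase complex that controls TOP messages, differed by -0.29 and 0.09 without passing the test, and were lower after scaling at -0.93 and -0.54. In knockdown against control oligo 0 genes of these 8 lists passed the test (0.00585% of all genes in each direction), and the 2 genes of lowest p in each list had log2 differences between -0.78 (Tnpo1) and 0.70 (Polr1e).

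Markers of the tissue were present in all groups. Summed TPM of 8 excitatory neuron markers was 813 to 946 in sham, 2689 to 2919 with the control oligo and 2295 to 3402 after knockdown, and that of 8 astrocyte markers 711 to 807, 789 to 895 and 734 to 881. In control oligo against sham, 5 of the 8 excitatory neuron genes (62.5%) were called up and 1 (12.5%), Neurod6, down. The shares of all genes were 52.6% and 12.8%. With library scaling by median ratios, 4 (50%) had a call upward and 2 (25%) downward, beside 26.1% and 29.2% of all genes. The median over the 8 excitatory genes was then 0.33 on the log2 scale. Astrocyte genes called were 4 up and 1 down, and 2 up and 3 down with that scaling. Markers of 8 inhibitory neuron, 8 oligodendrocyte, 8 microglial and 8 endothelial genes were likewise above 0 in every group. The 7 neutrophil markers summed to 2.59 to 7.59 TPM in sham, with 2 of them at 0 in all sham libraries. In control oligo they summed to 331, 31.5 and 339 TPM, low in replicate 2, the library in which most members were lowest as well. In knockdown replicates 2, 3 and 4 they summed to 76.0, 92.9 and 1421 TPM, while members were highest in replicate 3. The 7 erythroid markers ranged from 264 to 614 TPM in sham. They summed to 156, 835 and 2165 TPM in control oligo replicates 1 to 3 and to 1992, 2960 and 264 TPM in knockdown replicates 2, 3 and 4. The 8 inhibitory neuron markers summed to 843, 897 and 1253 TPM and to 1090, 1140 and 606 TPM in the same libraries. Both sums were highest in replicate 3 of either MCAO group, where members were highest. Within knockdown both were lowest in replicate 4, where members were lowest by share of all TPM. By share of nuclear protein-coding TPM, members were lowest in knockdown replicate 2 (4.50%, against 4.91% in replicate 4). In the control oligo group both marker sums were lowest in replicate 1, while members were lowest in replicate 2. Oligodendrocyte markers were also highest in replicate 3 of both MCAO groups, at 1537 and 1374 TPM, but lowest within knockdown in replicate 2, at 1179 TPM. Astrocyte markers were lowest in control oligo replicate 2, at 789 TPM, and highest in replicate 3, at 895 TPM. Within knockdown they were highest in replicate 4, at 881 TPM. Microglial markers summed to 242, 254 and 226 TPM in control oligo replicates 1 to 3, highest where members were lowest. In knockdown replicates 2, 3 and 4 they summed to 281, 241 and 429 TPM. Excitatory neuron markers summed to 2919, 2904 and 2689 TPM and to 3402, 3095 and 2295 TPM in the same libraries. Endothelial markers summed to 215, 213 and 253 TPM and to 234, 220 and 465 TPM. The part of these cell types in the levels of the members was not tested.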

How the data were processed

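RNA sequencing was done on 9 cortex libraries, 3 in each group. Per the file headers, the authors quantified annotated transcripts with StringTie 1.3.4d on a merged annotation with no strand option; HISAT2 2.0, StringTie 1.3 and build GRCm38 (mm10) are named in the submitters' processing notes. The deposited values are TPM, FPKM and mean coverage per transcript (other attribute values of a transcript table), not counts, and 0 per-sample columns were left unmapped. Depth was estimated as coverage times transcript length; counting errors per gene cannot be had from these values, and with 3 libraries a group the spread between libraries sets the precision. The labels do not say that libraries came from separate animals, so p-values measure the spread between these libraries.

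TPM was summed per gene ID. Genes with a TPM of at least 1 in at least 3 of 9 libraries (17080) were tested with limma 3.58.1 (trend) in R 4.3.3 on log2(TPM + 1), a scale that understates changes of low genes, within the 6 libraries of each comparison; a call is an adjusted p under 0.05 (Benjamini-Hochberg). Differences are log2 with standard errors. Gene types came from GENCODE M21, which held 52403 of the gene IDs (99.7%). Spans of 19 members overlap a gene on the opposite strand, whose reads cannot be told apart where strand was not used. The test was also run on simulated data, drawn with independent genes and the same spread in both groups compared. That run does not cover unequal spreads or genes that move together within a library. Medians and counts over member lists carry no test.

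Members named in the text were the stalk proteins and Rpsa, members with known further roles, paralogues with their partners, the 5 highest and 5 lowest differences of each comparison, the 5 lowest p in knockdown against control oligo, the most and least abundant members and, in each other list, the 2 genes of lowest p. The transcript and pseudogene examples were chosen after their values were seen. Members and lists were chosen with earlier results of these data known. Values of 3 genes that this rule or these lists include are not reported here.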

Additional observations from a re-analysis of the deposited data

How the results depend on the processing

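The alternatives tried were median-ratio scaling, TPM over nuclear protein-coding genes, FPKM, a pseudocount of 0.1, no filter, -ps genes added to their parents, coding transcripts only, all 9 libraries in 1 fit, leaving out each library, and a replicate block. Medians over members kept their sign under all of them. For control oligo against sham, the large- and small-subunit medians were 0.85 and 0.85 after median-ratio scaling (also with the replicate block). They were 0.74 and 0.70 on nuclear protein-coding TPM (7390 genes called) and 0.91 and 0.91 on FPKM. With -ps genes added they were 1.35 and 1.48, and on coding transcripts 1.70 and 1.59. Which subunit had the higher median thus depended on the setting. For knockdown against sham they were 0.88 and 0.94 after scaling, 0.71 and 0.78 on nuclear protein-coding TPM (6685 genes called), and 0.97 and 1.03 on FPKM. In each of these 3 settings 1 member was lower (Rps20). The medians were 1.48 and 1.62 with -ps genes added, 1.78 and 1.69 on coding transcripts, and 0.85 and 0.89 with the block and scaling. For knockdown against control oligo they were 0.10 and 0.13, with 0.049 and 0.073 after scaling, 0.016 and 0.039 on nuclear coding TPM, 0.20 and 0.21 with the block, and 0.030 to 0.18 and 0.050 to 0.21 when a library was left out.

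Rps20 turned negative against sham: with the control oligo at -0.10 (median-ratio, with or without the block), -0.25 (nuclear coding) and -0.038 (FPKM); with knockdown at -0.37, -0.55, -0.27 and -0.12 (coding transcripts), and -0.45 with the block and scaling, where 1 member was lower. On nuclear coding TPM Rps28 was -0.013 and Rps29 -0.044 with the control oligo, and Rps21 -0.00071 and Rps29 -0.16 with knockdown; Rps29 was -0.048 there with the block and scaling. In knockdown against control oligo, Rpl5 was 0.28 on coding transcripts, Rpl36 0.020 and Rps25 -0.63 with the block (-0.71 with scaling); leaving out a library moved Rpl36 between -0.22 and 0.043 and Rps21 between -0.38 and 0.035, lowest without control oligo replicate 2 and highest without replicate 3. The cause of these differences between settings was not tested.

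The share of TPM held by members in sham, control oligo and knockdown was 1.301%, 3.53% and 3.75% with -ps genes and 2.89%, 4.91% and 4.90% of nuclear coding TPM; on coding transcripts it was 0.806% in sham and 2.70% in knockdown. The ratio of large to small was 1.59, 1.47 and 1.47 with -ps genes and 1.38 in sham on coding transcripts.

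All genes called between knockdown and control oligo numbered 2, with 7 without the filter, 4 with all 9 libraries in 1 fit and 0 on nuclear coding TPM; members called were 0 under each alternative. Leaving out a library gave 1 to 3 genes there, 8880 to 11566 for control oligo against sham (77 to 79 members higher) and 8615 to 12077 for knockdown against sham (78 to 79 members higher). Deviations of same-numbered libraries had correlations from -0.07 to 0.23, and those of differently numbered libraries from -0.24 to 0.29. So few libraries cannot settle whether animals were paired, and numbers were not taken to pair them. Without the filter 77 of 81 members were called higher in control oligo than in sham, beside 24.0% of all genes. Among them were 30 of the 32 small-subunit members. In knockdown against sham 80 of 81 were higher without the filter, beside 23.4% of all genes. With the replicate block 79 members were higher in control oligo and 78 in knockdown than in sham, and 0 genes were called between knockdown and control oligo, also with scaling.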
